A study of Mus musculus with 9 samples.

Results

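The chemokine ligands expressed by mouse splenic monocytes were examined as a group of 10 genes: Ccl2, Ccl3, Ccl4, Ccl5, Ccl6, Ccl9, Cxcl2, Cxcl9, Cxcl10 and Cxcl16. They were chosen by name, as the chemokine genes that monocytes and macrophages are known to make, and are 10 of the 46072 genes in the expression tables. The 28 other chemokine ligand genes in the tables were used for comparison.

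Bulk RNA was sequenced from splenic monocytes of female C57BL/6 mice, in 3 groups of 3 libraries. Con mice received water by gavage for 6 days. Van mice received vancomycin, an oral antibiotic that acts on Gram-positive gut bacteria, at 2 mg per mouse per day for 6 days. VanLip mice received the same vancomycin course and then L654, a bacterial serine-glycine lipid that acts through the innate receptor TLR2, by retro-orbital injection on days 7, 9 and 11. The labels give a rest of 6 to 8 days after the gavage before spleens were taken, monocytes for these libraries were taken at the end of that range, and the lipid was given in that rest period. The labels name no injection for Con and Van, while control mice in related experiments of the study received vehicle injections. If the Con and Van mice of these libraries were not injected, the lipid and the injection cannot be told apart. Monocytes were enriched by magnetic negative selection with no sorting gate and were not stimulated in culture before RNA was prepared. The methods give 3 mice a group, and the labels do not say whether each library is 1 mouse, so the p-values below measure the spread between these libraries.

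Chemokines are small secreted proteins that direct leukocyte migration through G protein-coupled receptors, and they are classed as CC or CXC by the spacing of their first cysteines. Monocytes and macrophages make some of them constitutively, and raise others after Toll-like receptor signalling through NF-kB or after interferon signalling through STAT and IRF factors. Several of their mRNAs are short-lived, because proteins such as tristetraprolin (Zfp36) bind them and promote their decay.

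The genes lie in clusters on mouse chromosomes 11 and 5 (GRCm38 coordinates, GENCODE M21 annotation). Ccl5 (chr11:83525778-83530518), Ccl9 (chr11:83572919-83578636), Ccl6 (chr11:83587882-83593087) and Ccl3 (chr11:83647844-83649355) lie in this order on the minus strand, with Ccl4 (chr11:83662584-83664683) next to Ccl3 on the plus strand. Ccl2 (chr11:82035571-82037453, plus strand) and Cxcl16 (chr11:70453983-70459984, minus strand) lie apart from them on the same chromosome. Cxcl9 (chr5:92321347-92328079) and Cxcl10 (chr5:92346638-92348889) are neighbours on the minus strand of chromosome 5, and Cxcl2 (chr5:90903871-90905938, plus strand) lies at lower coordinates on that chromosome. Antisense genes overlap exons of Cxcl10 (Art3, mean level 0.261 FPKM) and Cxcl16 (Zmynd15, 2.12 FPKM), and others overlap Ccl2 (Gm17268, listed at 0) and Ccl6 (E230016K23Rik, 3.59 FPKM) without sharing exon bases. The sources do not state whether reads were counted by strand, so reads of these pairs may not have been separated. FPKM is the level of a transcript corrected for its length and for the size of the library.

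Promoter windows from RefSeq (GRCm38.p6), running from 250 bases before to 50 bases after the transcription start, were given for 6 of the 10 genes. The window of Cxcl2 and those of Cxcl9 and Cxcl10 are printed because Cxcl2 had the largest differences in the VanLip comparisons and because Cxcl9 and Cxcl10 varied together across libraries. Capitals mark matches on either strand to an NF-kB-type motif (GGANNTTCC), an interferon-response-type motif (GAAANNGAA), a STAT-type motif (TTCNNNGAA) or a TATA-type motif (TATAAA). The Cxcl2 window is chr5:90903649-90903948 on the plus strand, and those of Cxcl9 and Cxcl10 are chr5:92328030-92328329 and chr5:92348840-92349139 on the minus strand, each written 5′ to 3′.
Cxcl2: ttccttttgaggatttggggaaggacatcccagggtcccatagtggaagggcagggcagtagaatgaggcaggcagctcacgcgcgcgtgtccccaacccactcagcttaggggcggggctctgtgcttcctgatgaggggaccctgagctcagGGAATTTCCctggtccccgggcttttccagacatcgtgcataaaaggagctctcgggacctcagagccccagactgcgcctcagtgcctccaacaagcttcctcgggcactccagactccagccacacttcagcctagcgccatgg
Cxcl9: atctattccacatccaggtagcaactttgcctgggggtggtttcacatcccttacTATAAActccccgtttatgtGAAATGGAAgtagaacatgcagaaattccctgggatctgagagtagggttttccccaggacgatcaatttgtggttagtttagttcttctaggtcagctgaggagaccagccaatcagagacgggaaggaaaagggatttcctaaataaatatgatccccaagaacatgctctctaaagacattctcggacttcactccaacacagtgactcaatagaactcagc
Cxcl10: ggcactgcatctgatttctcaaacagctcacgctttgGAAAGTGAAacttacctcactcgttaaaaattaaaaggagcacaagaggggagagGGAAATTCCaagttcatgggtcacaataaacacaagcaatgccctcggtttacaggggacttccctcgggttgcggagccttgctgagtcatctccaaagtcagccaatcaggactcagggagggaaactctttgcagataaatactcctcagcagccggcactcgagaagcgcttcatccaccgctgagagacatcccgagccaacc
The Cxcl2 window held the NF-kB-type motif, first base at -96 from the start. The Cxcl10 window held it at -158 and the interferon-response-type motif at -213, and the Cxcl9 window held the latter at -175 with the TATA-type motif at -195. Of 32851 promoters of the same length, 4.26% held the NF-kB-type motif, 8.56% the interferon-response-type motif, 8.3% the STAT-type motif and 13.6% the TATA-type motif. Among the windows not printed, that of Ccl3 held the interferon-response-type motif at -39, that of Ccl9 held TATA-type motifs, and that of Ccl6 held none of these motifs. These are matches of letters and do not show binding.

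Con and Van libraries held 43070361 to 61383806 expected counts, and VanLip libraries held 170503470 to 184720704. The commonest low count was 1.33 in Con and Van and 2 in VanLip, so 1 read was not worth the same in all libraries. Depth and this step size therefore cannot be told apart from the lipid in either comparison that uses VanLip. The monocyte markers summed to 9851 to 12211 FPKM with all 10 above 1 FPKM, and 2 of 10 were called higher in VanLip than in Van. Markers of other cells were also present. Those of red pulp macrophages, which can make the same chemokines, summed to 1410 to 1684 FPKM in Con, 1663 to 2213 in Van and 1394 to 1792 in VanLip. Of these 8 markers, 8 were higher in Van than in Con (1 called, median log2 fold change 0.25) and 8 were lower in VanLip than in Van (1 called, median -0.20). The dendritic cell sum was 14.3 to 15.3 FPKM in Con, 13.7 to 14.1 in Van and 14.2 to 20.5 in VanLip, with 3 of 6 markers called lower in Van than in Con, 1 called lower in VanLip than in Con and 2 called higher in VanLip than in Van. The neutrophil markers summed to 2.15 to 12.6 FPKM, with 1 of 8 (Ly6g) listed at 0 in every library and 1 called lower in each of Van and VanLip against Con. The B cell sum was 342 to 399 FPKM in Con, 255 to 281 in Van and 260 to 325 in VanLip, with 1 of 6 markers called lower in each of Van and VanLip against Con. The erythroid sum was 99.6 to 202 FPKM in Con, 343 to 772 in Van and 278 to 1162 in VanLip, with 5 of 6 markers called higher in Van than in Con and 6 of 6 called higher in VanLip than in Con. Their part in the differences below was not tested. Beside these marker counts, 4.34% of all genes tested were called in Van against Con, 6.67% in VanLip against Con and 9.86% in VanLip against Van. In bulk RNA, fewer cells making a transcript and less of it per cell cannot be told apart.

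All 10 ligands were detected, at 3 or more expected counts, in all 9 libraries. Together they summed to 642 to 852 FPKM per library, which was 95.3 to 98.4% of the summed level of all 38 chemokine ligand genes in the tables. Ccl6 alone made up 40.2 to 57.4% of that sum. By mean level over the 9 libraries the order was Ccl6 (331 FPKM), Ccl5 (108), Ccl9 (96.5), Cxcl2 (61.5), Ccl3 (60.4), Ccl2 (18.7), Cxcl10 (16.9), Cxcl16 (14.6), Ccl4 (10.4) and Cxcl9 (7.34). Ccl6 was above Ccl5, and Ccl3 above Ccl2, in 9 of 9 libraries with no overlap of their ranges. All other neighbours in this order had overlapping ranges, and Cxcl2 was above Ccl3 in 4 of 9 libraries. The spread also differed between ligands. The highest library was 1.61 times the lowest for Ccl3, 1.65 times for Ccl9 and 1.68 times for Cxcl16, against 3.99 times for Cxcl2, 4.03 times for Cxcl10 and 4.70 times for Cxcl9.

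**Figure D1:**
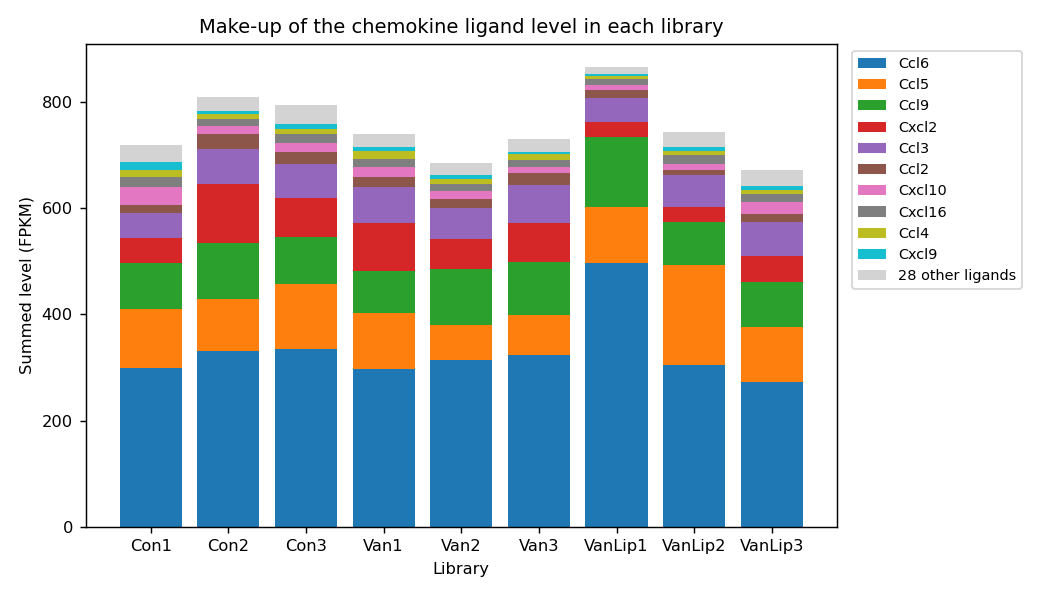
Stacked bars show the summed level of chemokine ligand transcripts (FPKM, y axis) in each of the 9 libraries (x axis), with a colour for each of the 10 ligands and grey for the 28 others. Ccl6 is the tallest segment in every library, at 40.2 to 57.4% of the total.

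Differences between groups were tested with DESeq2 on the counts of all 9 libraries, and a gene was called at a Benjamini-Hochberg adjusted p of 0.05 or under over all genes tested. Fold changes are log2 ratios of normalised counts, with standard errors (SE) and 95% intervals. The 3 comparisons share libraries, so their results are not independent of each other.

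Of the recruiters of monocytes and neutrophils, Ccl2 passed the test in VanLip against Con and Cxcl2 did not. Ccl2, the ligand of Ccr2 that draws monocytes out of bone marrow, fell in VanLip against Con. Its level was 15.2, 28.5 and 23.1 FPKM in Con, 19.5, 16.9 and 23.1 FPKM in Van, and 15.9, 10.8 and 15.5 FPKM in VanLip. VanLip was below all Van libraries, but Con replicate 1 lay inside the VanLip range, so Con and VanLip overlapped. The VanLip against Con difference was -0.73 on the log2 scale (SE 0.22, interval -1.16 to -0.29, DESeq2 adjusted p = 0.0232). VanLip against Van was -0.53 (-0.96 to -0.09, adjusted p = 0.122), which did not pass, and Van against Con was -0.20 (-0.64 to 0.24, adjusted p = 0.801). The call in VanLip against Con rested on single libraries: without Con replicate 2 the difference was -0.49 with an adjusted p of 0.231, and it was also lost without Con replicate 3 (adjusted p = 0.09997) or VanLip replicate 2 (0.178). It was lost with edgeR (adjusted p = 0.143) and with limma on log2 FPKM (0.181 to 0.331), and over all alternatives its adjusted p ran from 0.000236 to 0.331. The VanLip against Van difference passed when only those groups were fitted (adjusted p = 0.0431) and without Con replicate 1 (0.0362), in a range of 0.0362 to 0.441.

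Cxcl2, a neutrophil attractant that acts through Cxcr2, had the largest differences of the 10 in both VanLip comparisons. Its level was 45.8, 112 and 72.7 FPKM in Con, 88.7, 55.5 and 72.9 FPKM in Van, and 27.98, 28.02 and 49.8 FPKM in VanLip. Every VanLip library was below every Van library, and VanLip replicate 3 was above Con replicate 1. VanLip against Con was -1.14 (SE 0.43, interval -1.99 to -0.29, adjusted p = 0.0908) and VanLip against Van was -1.03 (-1.88 to -0.19, adjusted p = 0.115). Neither passed the threshold. Without VanLip replicate 3 both did, at -1.48 (adjusted p = 0.0137) and -1.37 (adjusted p = 0.0219), and without Con replicate 1 the first was -1.42 (adjusted p = 0.0230). These fits are listed because they passed. Con replicate 2 was the highest library, and without it the mean of Con is nearer that of VanLip. Over all alternatives the adjusted p ran from 0.0137 to 0.403 against Con and from 0.0219 to 0.412 against Van. Van against Con was -0.11 (-0.95 to 0.74, adjusted p = 0.969).

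**Figure D2:**
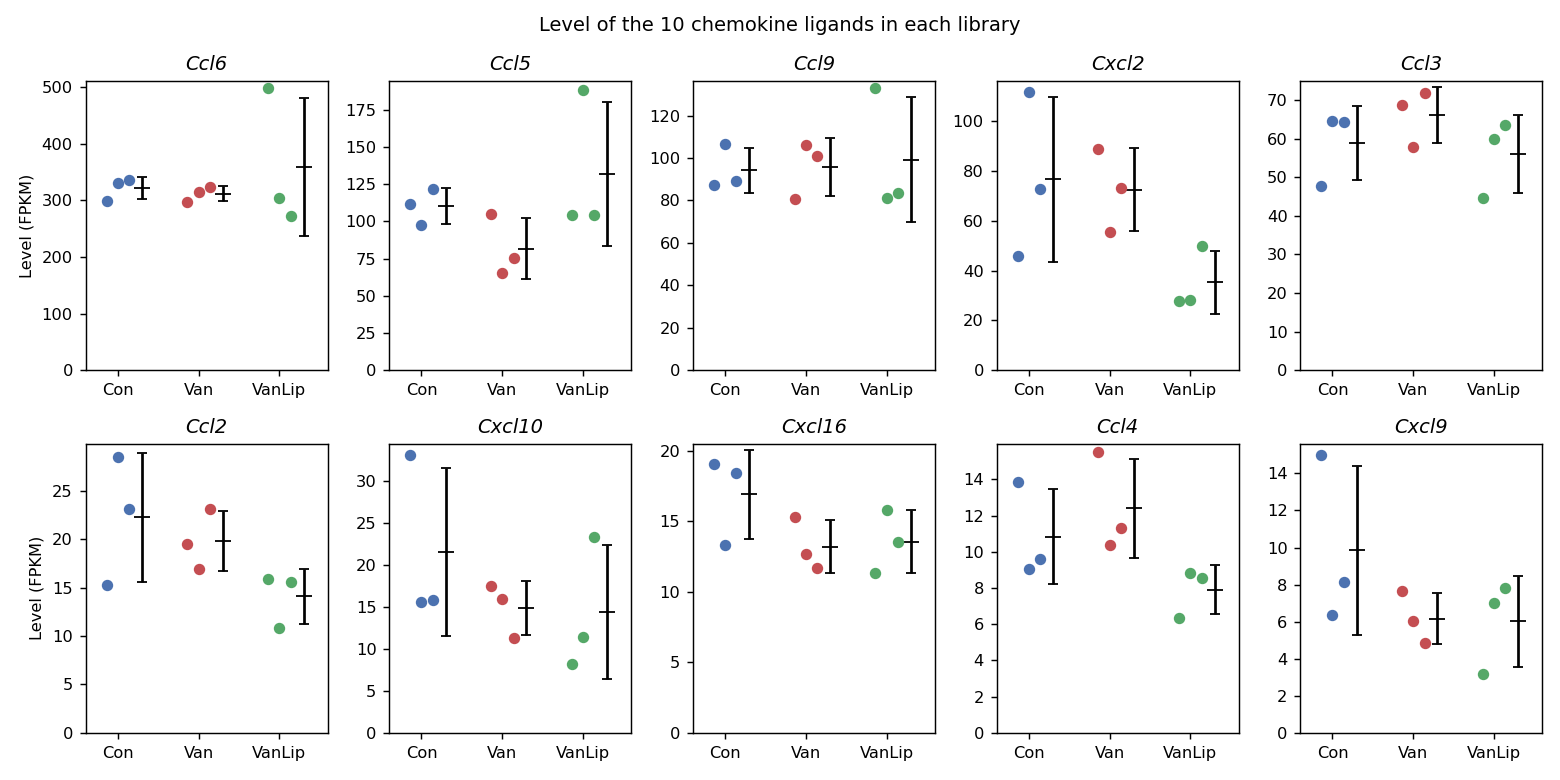
Each panel plots the level of a ligand (FPKM, y axis from 0) in the 3 libraries of Con, Van and VanLip (points), with the mean and SD of each group beside them in black. VanLip lies below Van with no overlap for Ccl2, Ccl4 and Cxcl2, and VanLip replicate 1 is the highest library for Ccl6 and Ccl9.

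Ccl3, Ccl4 and Ccl5 attract T cells, NK cells and monocytes, and Ccl3 and Ccl5 do so in part through Ccr1. Ccl4 fell in VanLip against Van. Its level was 13.8, 9.04 and 9.58 FPKM in Con, 15.5, 10.4 and 11.3 FPKM in Van, and 6.33, 8.80 and 8.54 FPKM in VanLip. All VanLip libraries were below all libraries of both other groups. VanLip against Van was -0.66 (SE 0.22, interval -1.10 to -0.23, adjusted p = 0.0324), while VanLip against Con was -0.48 (-0.91 to -0.04, adjusted p = 0.209). Con replicate 1 was the highest Con library, and without it the mean of Con is nearer that of VanLip. Van against Con was 0.19 (-0.25 to 0.63, adjusted p = 0.822). The call was lost without Van replicate 1, where the difference was -0.46 with an adjusted p of 0.270, without VanLip replicate 1 (adjusted p = 0.156) and without Van replicate 3 (0.0549). It was also lost with VanLip thinned to the depth of the other libraries (adjusted p = 0.0573), with edgeR (0.110) and with limma (0.114 to 0.242). Adding the replicate number to the fit as a block lost it as well, and over all alternatives its adjusted p ran from 0.0133 to 0.270. In the same comparison the red pulp macrophage markers were lower (8 of 8, 1 called, sums of 1663 to 2213 FPKM in Van and 1394 to 1792 in VanLip) and the dendritic cell markers higher (6 of 6, 2 called, sums of 13.7 to 14.1 FPKM in Van and 14.2 to 20.5 in VanLip). Their part in the Ccl4 difference was not tested.

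Ccl3, the neighbour of Ccl4, was not called. Its level was 47.8, 64.7 and 64.2 FPKM in Con, 68.7, 57.9 and 71.9 FPKM in Van, and 44.6, 59.98 and 63.6 FPKM in VanLip, and all groups overlapped. The intervals were -0.15 to 0.47 for Van against Con, -0.39 to 0.22 for VanLip against Con and -0.55 to 0.06 for VanLip against Van, where the difference was -0.25, in the same direction as that of Ccl4. VanLip replicate 1 was the lowest library, and without it the mean of VanLip is nearer that of Van. Ccl3 was 3.45 to 7.45 times as abundant as Ccl4 in the same library, and that ratio was 6.81 to 7.45 in VanLip, 4.43 to 6.37 in Van and 3.45 to 7.15 in Con, so Con overlapped both other groups. The ratio of the pair was not tested.

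Ccl5, also called RANTES, ranked second by mean level over the 9 libraries, but was above Ccl9 in only 5 of them. Its level was 112, 97.4 and 122 FPKM in Con, 105.0, 65.1 and 75.4 FPKM in Van, and 104, 188 and 104 FPKM in VanLip. VanLip replicate 2 was the highest library, and Van replicate 1 lay above the other Van libraries and inside the range of the other groups. VanLip against Van was 0.68 (SE 0.31, interval 0.07 to 1.29, adjusted p = 0.166), and Van against Con was -0.44 (-1.05 to 0.17, adjusted p = 0.573). Neither passed, but both did without Van replicate 1, at 0.91 (adjusted p = 0.00152) and -0.67 (adjusted p = 0.0473), in ranges of 0.00152 to 0.388 and 0.0473 to 0.902 over all alternatives. Other libraries pull the other way. Without VanLip replicate 2 the mean of VanLip is nearer that of Van, and without Van replicate 2, the lowest library, the mean of Van is nearer that of Con. VanLip against Con was 0.24 (-0.37 to 0.85, adjusted p = 0.762). T cells and NK cells also make Ccl5, and the negative selection used antibodies to their surface markers. Their 12 transcript markers summed to 6.92 to 11.1 FPKM, with 8 of 12 never reaching 1 FPKM, and the part of these cells in the level of Ccl5 was not tested.

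Ccl6 and Ccl9, mouse CC ligands of Ccr1 that myeloid cells make constitutively, were abundant, with coefficients of variation of 4.27 to 14.1% within Con and Van. Ccl6 was 299, 331 and 335 FPKM in Con, 297, 315 and 323 FPKM in Van, and 497, 305 and 273 FPKM in VanLip. Ccl9 was 87.1, 106 and 89.3 FPKM in Con, 80.6, 106 and 101 FPKM in Van, and 133, 81.0 and 83.4 FPKM in VanLip. Only VanLip replicate 1 stood outside the range of Con and Van upward, for both genes. Neither passed the test in any comparison. For Ccl6 the intervals were -0.41 to 0.29 for Van against Con, -0.20 to 0.50 for VanLip against Con and -0.14 to 0.56 for VanLip against Van. For Ccl9 they were -0.34 to 0.36, -0.29 to 0.41 and -0.30 to 0.40 in the same order. Without VanLip replicate 1 the VanLip differences changed sign, from 0.15 to -0.18 for Ccl6 and from 0.06 to -0.22 for Ccl9 against Con, and from 0.21 to -0.12 and from 0.05 to -0.23 against Van. VanLip replicate 1 also had the highest monocyte marker sum (12211 FPKM) and the highest dendritic cell marker sum (20.5 FPKM), and the lowest red pulp macrophage (1394 FPKM), eosinophil (9.41 FPKM) and platelet (4.77 FPKM) marker sums. Its erythroid sum was 278 FPKM, against 1162 and 1085 FPKM in the other VanLip libraries. Their part in the levels of Ccl6 and Ccl9 was not tested.

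Cxcl9 and Cxcl10 attract activated T cells and NK cells through Cxcr3 and are textbook targets of interferon gamma. Cxcl9 was 15.0, 6.39 and 8.15 FPKM in Con, 7.64, 6.02 and 4.85 FPKM in Van, and 3.20, 7.00 and 7.84 FPKM in VanLip. Cxcl10 was 33.0, 15.6 and 15.8 FPKM in Con, 17.5, 15.9 and 11.3 FPKM in Van, and 8.21, 11.4 and 23.3 FPKM in VanLip. Con replicate 1 was the highest library and VanLip replicate 1 the lowest for both genes, and all groups overlapped. No difference passed the test, and the intervals were wide. Those of Cxcl9 were -1.58 to 0.19 for Van against Con, -1.62 to 0.15 for VanLip against Con and -0.93 to 0.84 for VanLip against Van. Those of Cxcl10 were -1.55 to 0.40, -1.60 to 0.35 and -1.03 to 0.92 in the same order. Without Con replicate 1, Van against Con moved from -0.69 to -0.24 for Cxcl9 and from -0.57 to -0.11 for Cxcl10, and VanLip against Con moved from -0.73 to -0.28 and from -0.63 to -0.16.

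Cxcl16, a membrane-bound ligand of Cxcr6 that is shed from the cell surface, varied less. Its level was 19.0, 13.3 and 18.4 FPKM in Con, 15.3, 12.7 and 11.7 FPKM in Van, and 11.4, 15.8 and 13.5 FPKM in VanLip. Con replicate 2 lay within the range of the other groups, so all groups overlapped. Van against Con was -0.37 (interval -0.71 to -0.03, adjusted p = 0.269) and VanLip against Con was -0.35 (-0.68 to -0.01, adjusted p = 0.249), and neither passed. VanLip against Van was 0.02 (-0.31 to 0.36, adjusted p = 0.973).

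**Figure D3:**
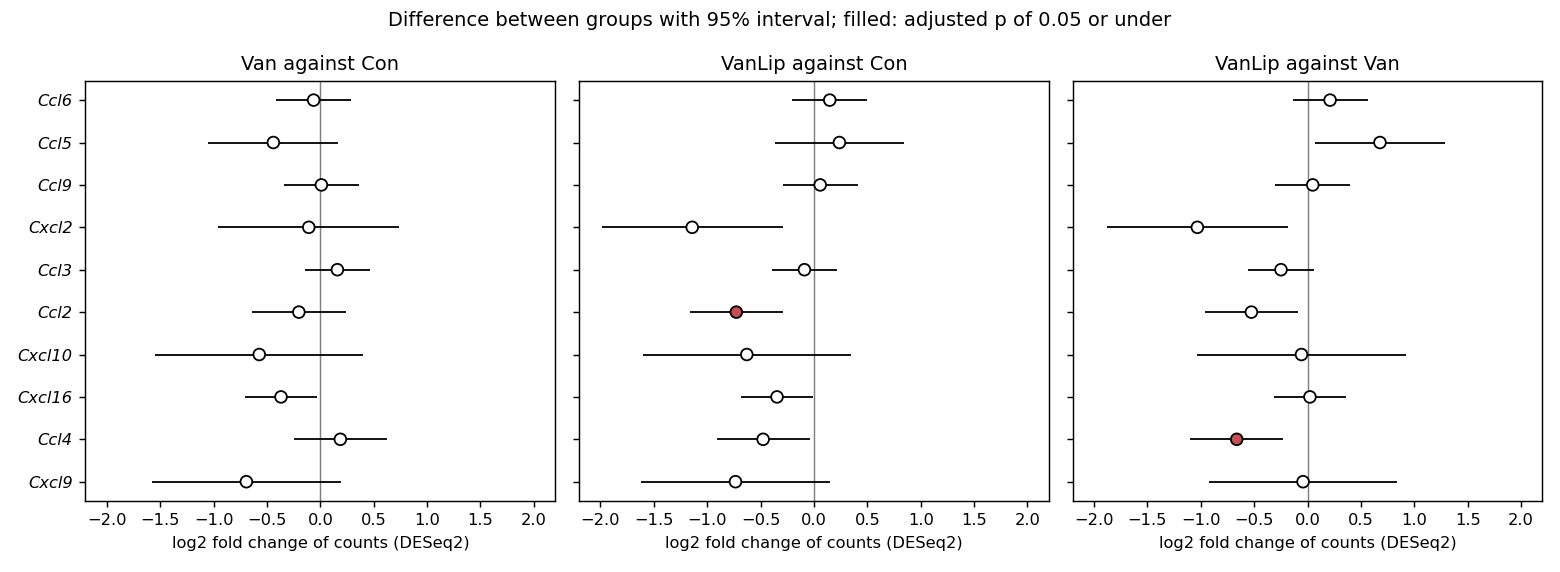
Each panel shows, for a comparison of 2 groups, the log2 fold change of counts (x axis) of the 10 ligands (y axis, ordered by mean level) with its 95% interval as a line; filled points had a DESeq2 adjusted p of 0.05 or under. The filled points are Ccl2 in VanLip against Con and Ccl4 in VanLip against Van.

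Counted together, the ligands gave 0 or 1 call in each comparison, which for 10 genes lies near the share called over all genes. In Van against Con, 0 of 10 were called with DESeq2, against 4.34% of all genes tested, with 1 (Cxcl16) at an unadjusted p under 0.05 and 0 called by edgeR or limma. In VanLip against Con, 1 of 10 was called lower (Ccl2), against 6.67% of all genes, and 4 had an unadjusted p under 0.05. In VanLip against Van, 1 of 10 was called lower (Ccl4), against 9.86% of all genes, again with 4 at an unadjusted p under 0.05. The share of all genes at an unadjusted p under 0.05 was not counted, so these unadjusted counts cannot be set against a background. A likelihood-ratio test of any difference among the 3 groups called 1 of 10 (Ccl2, adjusted p = 0.0357), against 13.5% of all genes. It called 0 of 10 without Con replicate 3, Van replicate 3 or VanLip replicate 2. The count was also 0 with edgeR, with limma, with VanLip thinned, with no independent filtering or with the replicate number added as a block. The groups did not overlap for 0, 1 (Ccl4) and 3 (Ccl2, Ccl4 and Cxcl2) of the 10 ligands in these 3 comparisons of 2 groups, while among all genes with a mean of at least 50 normalised counts the groups did not overlap for 24.3, 24.7 and 28.9%. The median log2 fold change of the 10 was -0.15 in Van against Con, -0.41 in VanLip against Con and -0.05 in VanLip against Van, beside medians of -0.01, 0.01 and 0.01 over all genes tested.

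Across the 9 libraries some of the ligands varied in sets, within groups as well as across them, and the pairs named are a selection. The values below are Pearson correlations of log2 (FPKM + 1) over 9 libraries, given as a description. Points of a pair come from the same library and share its depth and cell make-up. Cxcl9 and Cxcl10 gave r = 0.91, and r was 0.89 after the group means were removed. Cxcl9 and Cxcl16 gave r = 0.86 (0.81 within groups), and Cxcl10 and Cxcl16 gave 0.62 (0.50 within groups). Ccl4 gave 0.64 with Cxcl9 (0.89 within groups, 0.38 without VanLip replicate 1). It gave 0.47 with Cxcl16 (0.79 within groups) and -0.58 with Ccl9 (-0.81 within groups). Ccl3 and Cxcl2 gave 0.69 (0.76 within groups). Ccl2 and Cxcl2 gave r = 0.88 (0.77 within groups), and Cxcl2 was 1.76 to 4.55 times as abundant as Ccl2. Ccl6 and Ccl9 gave r = 0.85 (0.88 within groups), with Ccl6 at 2.97 to 3.76 times Ccl9 in every library. Cxcl9 ran opposite to Ccl9 (r = -0.73) and to Ccl6 (-0.70). Cxcl10 gave -0.58 with Ccl9 and -0.70 with Ccl6, and Cxcl16 gave -0.69 and -0.44. VanLip replicate 1 carried part of this: without it r was 0.86 for Cxcl9 and Cxcl10 and 0.95 for Ccl2 and Cxcl2, but 0.64 for Ccl6 and Ccl9, -0.48 for Cxcl9 and Ccl9 and -0.36 for Cxcl9 and Ccl6. With Ccl9 and Ccl6 in that order, Cxcl10 then gave -0.27 and -0.53, and Cxcl16 gave -0.58 and -0.03. Marker sums varied with the same sets. The platelet sum gave r = 0.84 with Cxcl9 (0.69 without VanLip replicate 1), 0.86 with Cxcl16 (0.90 without it) and -0.74 with Ccl9 (-0.36 without it). The dendritic cell sum gave r = 0.90 with Ccl6 and 0.75 with Ccl9, which rested on VanLip replicate 1, since r was 0.07 and 0.18 without it. The monocyte sum gave 0.78 with Ccl9 (0.56 without it), 0.72 with Ccl6 (0.33 without it) and -0.77 with Ccl4 (-0.60 without it). Their part in the sets was not tested. VanLip replicate 1 had the lowest level of 6 of the 10 ligands and the highest level of 2.

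**Figure D4:**
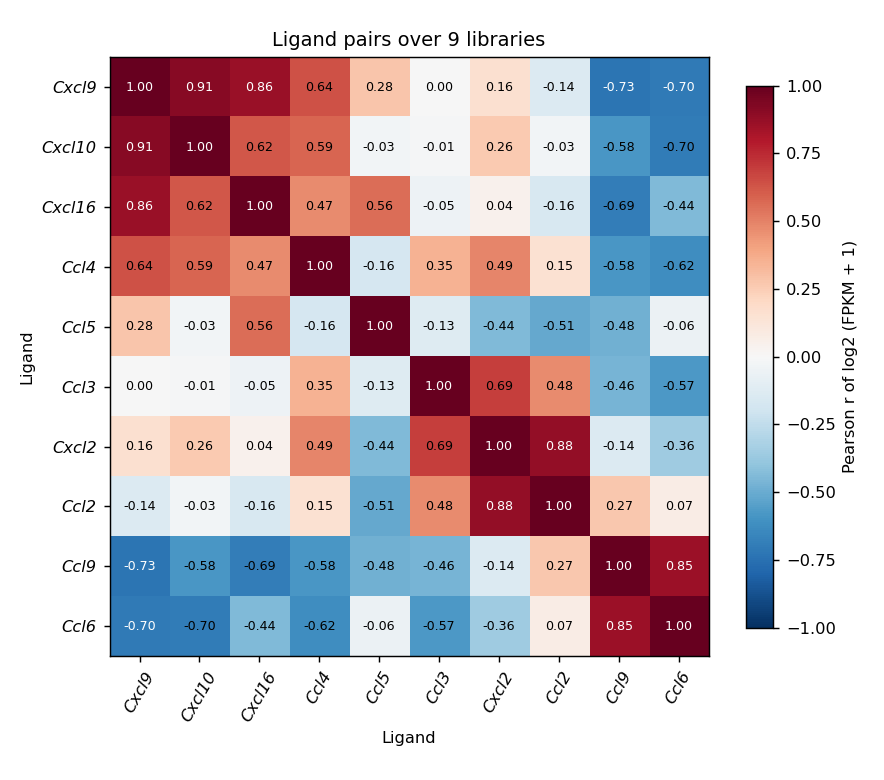
The grid gives the Pearson correlation of log2 (FPKM + 1) over the 9 libraries for each pair of ligands, red for positive and blue for negative. Cxcl9, Cxcl10 and Cxcl16 give 0.62 to 0.91 with each other, and Ccl4 gives 0.64 with Cxcl9, 0.59 with Cxcl10 and 0.47 with Cxcl16. Ccl6 and Ccl9 give 0.85 with each other and negative values with Cxcl9.

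**Figure D5:**
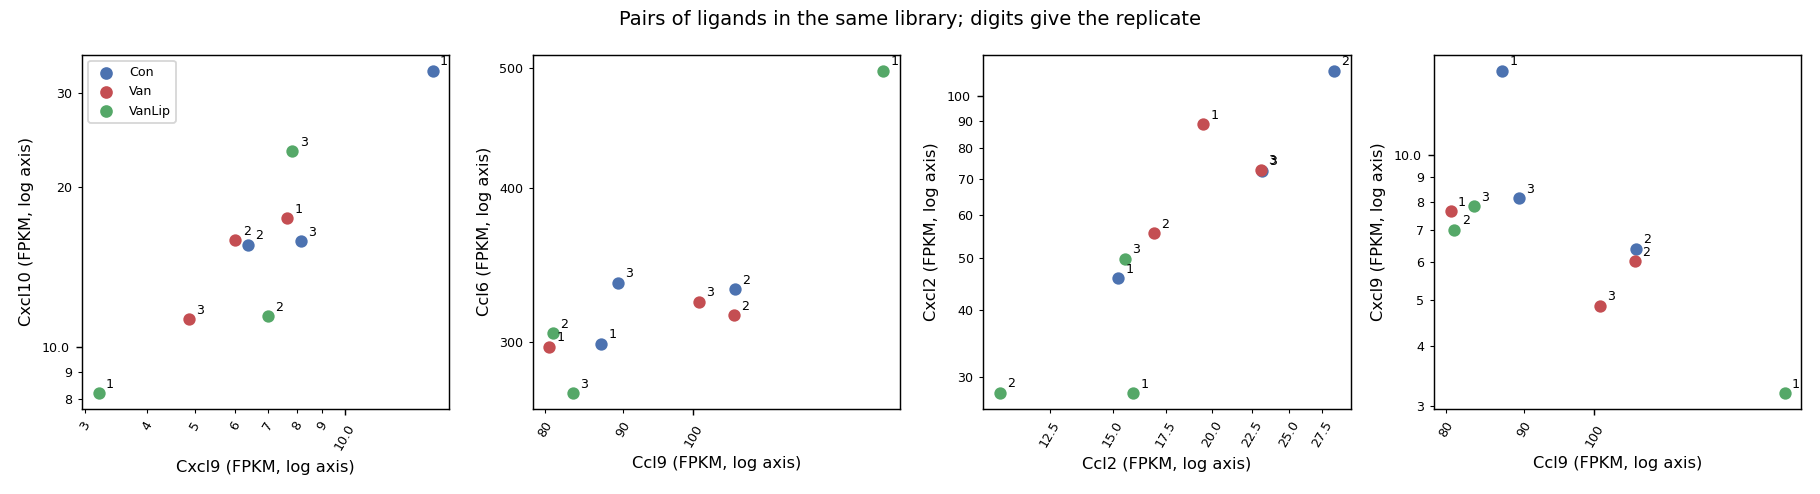
Each panel plots the level of a ligand against another in the same library (FPKM on log axes), coloured by group, with the replicate number beside each point. Con replicate 1 and VanLip replicate 1 are the extremes of the Cxcl9 and Cxcl10 panel, and VanLip replicate 1 stands apart from the other 8 libraries in the Ccl6 and Ccl9 panel.

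The genes whose levels ran closest to each ligand were sought among 11709 genes with a mean of at least 1 FPKM, with the same correlation over 9 libraries. With so many genes and 9 points, high values are found for any gene, so they are given as a description. For Cxcl9 they were Gbp4 (r = 0.97), Gbp5 (0.97) and Fam26f (0.96), of which Gbp4 and Gbp5 are interferon-inducible guanylate-binding proteins. For Cxcl10 they were Icam1 (0.96), an adhesion molecule, Gbp5 (0.95) and Gm8995 (0.95). Ccl2 ran with Egr1 (0.95), an immediate early transcription factor, with Zfp960 (0.95) and with BC068281 (0.94). Cxcl2 ran with Baz1a (0.97), Tax1bp1 (0.94) and Aftph (0.94). Ccl5 ran with Socs2 (0.95), a suppressor of cytokine signalling, with Cacnb3 (0.94) and with Chrac1 (0.94). For Ccl3 they were Pex13 (0.92), Zbtb14 (0.90) and Dusp12 (0.89), and for Ccl4 they were Ubap2 (0.96), Etv6 (0.96) and Sirpb1b (0.95). For Ccl6 they were Ighv2-3 (0.94), Wipf1 (0.93) and Gsto1 (0.93), which fell to 0.50, 0.71 and 0.74 without VanLip replicate 1. For Ccl9 they included Man2a2 (0.96) and Sulf2 (0.93), and for Cxcl16 they were Rapgef1 (0.95), Stk38l (0.94) and Gstcd (0.93).

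The 28 other chemokine ligands were scarce in these cells. Of them, 7 had a mean of at least 1 FPKM, led by Ccl22 at 4.47 to 9.42 FPKM, Ppbp at 1.59 to 9.59 FPKM, Pf4 at 1.39 to 6.89 FPKM and Ccl24 at 0.795 to 4.88 FPKM. Ppbp and Pf4 are platelet chemokines and are also in the platelet marker list. Many had too few counts for an adjusted p. In Van against Con 0 of the 19 with an adjusted p were called higher and 1 lower, in VanLip against Con 0 and 1 of 13, and in VanLip against Van 1 and 1 of 18. Over all genes tested the shares called were 4.34, 6.67 and 9.86% in that order. Cxcl3, which like Cxcl2 is a ligand of Cxcr2, fell in both VanLip comparisons, by 2.32 on the log2 scale against Con (SE 0.62, DESeq2 adjusted p = 0.00661) and by 2.51 against Van (SE 0.62, adjusted p = 0.00151). Its level was low, at 0.132, 0.431 and 0.398 FPKM in Con, 0.422, 0.181 and 0.358 FPKM in Van, and 0.026, 0.0111 and 0.0633 FPKM in VanLip. The mean FPKM differed by more than the counts, with a log2 ratio of -3.26 in both comparisons. Ccl12, a monocyte attractant that like Ccl2 acts through Ccr2, was 0.499, 0.399 and 0.700 FPKM in Con, 0.175, 0.0896 and 0.183 FPKM in VanLip, and listed at 0 in the 3 Van libraries. The Con libraries held 15.5 to 18.3 expected counts of it. Set against a floor of 3 counts per library, it was at least 6.18-fold lower in Van than in Con and at least 1.77-fold lower in Van than in VanLip. These floored ratios were not tested. DESeq2 called it from the listed zeros, at -6.65 in Van against Con (adjusted p = 0.000246) and 4.86 in VanLip against Van (adjusted p = 0.00916). A listed 0 can also be a failed estimate for a gene of so few counts.

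Of the 10 receptors for these ligands, 4 had a mean of at least 1 FPKM, and 1 was called in any comparison of 2 groups. Among all genes tested, 4.34% were called in Van against Con, 6.67% in VanLip against Con and 9.86% in VanLip against Van. Ccr2, the receptor of Ccl2, was 173, 163 and 159 FPKM in Con, 70.4, 93.0 and 98.2 FPKM in Van, and 256, 156 and 190.3 FPKM in VanLip. Its Van libraries were all below those of both other groups. It fell by 0.83 on the log2 scale in Van against Con (SE 0.18, adjusted p = 0.00048) and rose by 1.04 in VanLip against Van (SE 0.18, adjusted p = 7.38e-07), while Ccl2 did not pass in either of these comparisons. In VanLip against Van, where Ccr2 rose, 2 of 10 monocyte markers and 2 of 6 dendritic cell markers were also called higher, and in Van against Con, where it fell, 0 of 10 monocyte markers were called and 3 of 6 dendritic cell markers were called lower. Their part in the Ccr2 differences was not tested. Ccr3 at 8.68 to 23.6 FPKM, which is also in the eosinophil marker list, and Ccr1 at 1.94 to 9.20 FPKM were not called.

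Of 12 genes of NF-kB signalling, all above 1 FPKM, 0 were called higher and 1 lower in Van against Con, 0 and 1 in VanLip against Con, and 2 and 1 in VanLip against Van, with median log2 fold changes of -0.02, -0.02 and -0.06. Over all genes tested the shares called were 4.34, 6.67 and 9.86% in the same order. Rel, the NF-kB subunit c-Rel, fell by 0.68 in VanLip against Con (adjusted p = 0.00586). Its level was 93.4, 76.5 and 89.1 FPKM in Con and 56.1, 50.4 and 57.7 FPKM in VanLip, with a mean of 64.9 FPKM in Van. It was also lower in Van than in Con (-0.42) and in VanLip than in Van (-0.25), with neither called (DESeq2 adjusted p = 0.198 and 0.459). Nfkbia, the feedback inhibitor IkB alpha, fell by 0.40 in VanLip against Van (adjusted p = 0.039), and Myd88, the adaptor of TLR2, rose by 0.28 (adjusted p = 0.00627). Ikbkg, the regulatory subunit of the IkB kinase, fell by 0.25 in Van against Con (adjusted p = 0.0204) and rose by 0.23 in VanLip against Van (adjusted p = 0.0196).

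Of 13 genes of interferon signalling, 0 were called in Van against Con with DESeq2, where 2 had an unadjusted p under 0.05, a threshold with no share of all genes counted. In VanLip against Con 1 rose and 1 fell, and in VanLip against Van 1 rose. Among all genes tested, 4.34% were called in Van against Con, 6.67% in VanLip against Con and 9.86% in VanLip against Van. Stat2, a subunit of the type I interferon transcription factor, fell by 0.49 in VanLip against Con (adjusted p = 0.00545). It was also lower in Van than in Con (-0.28) and in VanLip than in Van (-0.22), with neither called (DESeq2 adjusted p = 0.275 and 0.350). Ifngr1, a chain of the interferon gamma receptor, rose by 0.19 in VanLip against Con (adjusted p = 0.0114). Irf8, a factor of monocyte development, rose by 0.42 in VanLip against Van (adjusted p = 0.000604). Of 10 genes for chemokine processing and mRNA decay, 1 was called, in VanLip against Con, beside 6.67% of all genes tested. This was Mmp9, a protease that trims chemokines, which fell by 1.61 (adjusted p = 0.0188) at levels of 0.0556 to 0.337 FPKM in these groups. It was also lower in Van than in Con (-0.93) and in VanLip than in Van (-0.68), with neither called (DESeq2 adjusted p = 0.375 and 0.474). Zfp36, which encodes tristetraprolin, stood at 869 to 1377 FPKM and was not called.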

How the data were processed

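Poly-A RNA libraries from splenic monocytes were made with a stranded kit. Per the submitters' processing notes, the authors used HISAT2 (2.2.1), SAMtools (1.9), StringTie (2.1.3) and DESeq2 (1.38.3). The annotation release they counted against is not given in the sources used here. They deposited expected counts and FPKM per gene for all 9 libraries. Expected counts were rounded and fitted here with DESeq2 (1.42.0; R 4.3.3), group as the only term, over 25441 genes, by Wald tests for pairs of groups and a likelihood-ratio test for any difference, with Benjamini-Hochberg adjustment at 0.05. FPKM was used for levels. Alternatives were edgeR (4.0.16), limma (3.58.1) on log2 (FPKM + 1) or (FPKM + 0.1) after quantile normalisation, other filters and library sizes, VanLip thinned to 20141089 fragments, and each library left out. The 10 ligands and all gene lists were chosen with earlier results of these data known. All 10 ligands were named. From the other lists, genes were named where called, plus up to 4 by mean FPKM; the ratios between ligands and the printed promoters were chosen after values were seen. Levels resting on few counts carry counting error beside the spread between libraries. A few genes that the naming rule allows are not reported here.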

Additional observations from a re-analysis of the deposited data

How the results depend on the processing

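Besides the fit reported, 10 other settings and 9 fits with 1 library left out were run. For single ligands, 282 of the values under the other settings kept their direction and side of the threshold, 10 lost a call, 1 gained a call and 7 changed sign. Of those with a library left out, 235 stayed, 6 lost a call, 6 gained a call and 23 changed sign. The number of ligands called moved as follows. It was 0 in VanLip against Con, VanLip against Van and the test of any difference with edgeR and with limma at either pseudocount or with a filter on mean FPKM. It was 0 in VanLip against Van and in the test of any difference with VanLip thinned, 0 in the test of any difference with no independent filtering, and 2 (Ccl2 and Ccl4) in VanLip against Van when only these groups were fitted. With 1 library left out it ranged from 0 to 1 in Van against Con, 0 to 2 in VanLip against Con, 0 to 2 in VanLip against Van and 0 to 3 in the test of any difference. Libraries with the same replicate number had deviations correlating at -0.065 to 0.123. Libraries with different numbers were not compared in this way, so it cannot be told whether the number marks a pairing. With the replicate block 0 ligands were called in Van against Con, 1 in VanLip against Con, and 0 in VanLip against Van, where Ccl4 was lost (adjusted p = 0.0752), and in the test of any difference, where Ccl2 was lost.

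The differences that changed sign had not passed the test in the fit reported. With limma, Ccl6 in Van against Con was 0.0044 at either pseudocount and Ccl9 in VanLip against Van was -0.0063 (-0.0066 with a pseudocount of 0.1), and with the replicate block Cxcl9 in VanLip against Van was 0.0102. With 1 library left out, Van against Con ranged from -0.42 to 0.0325 for Ccl2, -0.0167 to 0.41 for Ccl4, -0.0557 to 0.11 for Ccl9 and -0.39 to 0.30 for Cxcl2. VanLip against Con ranged from -0.21 to 0.0436 for Ccl3, -0.0922 to 0.38 for Ccl5, -0.18 to 0.31 for Ccl6 and -0.22 to 0.19 for Ccl9. VanLip against Van ranged from -0.12 to 0.38 for Ccl6, -0.23 to 0.18 for Ccl9, -0.28 to 0.26 for Cxcl9, -0.62 to 0.22 for Cxcl10 and -0.11 to 0.17 for Cxcl16.

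Over all genes, DESeq2 called 803 in Van against Con, 1104 in VanLip against Con, 1777 in VanLip against Van and 2228 in the test of any difference. edgeR called 204, 300, 855 and 788, and limma called 17 to 95, 168 to 333, 516 to 832 and 330 to 722. Thinning VanLip gave 725 in VanLip against Con. Fitting only the groups compared gave 990 in Van against Con, and the replicate block gave 932. Leaving out a library gave as few as 425 in Van against Con, 606 in VanLip against Con and 1142 in VanLip against Van. The causes were not tested. With 3 libraries a group, the 95% intervals of single ligands spanned 0.61 to 1.95 on the log2 scale.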
